A study of Mus musculus with 8 samples.

Results

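Serum response factor (SRF), its coactivators, the MEF2 transcription factors and the homeodomain-only protein Hopx form a small group of regulators that act together on muscle genes. The 8 genes described here, Srf, Myocd, Mkl1, Mkl2, Mef2a, Mef2c, Mef2d and Hopx, were taken by symbol from the 20701 gene symbols of the count table. For each symbol, the RefSeq transcript entry with the most reads over all libraries was used. They were measured by RNA sequencing in pharyngeal mesoderm and hearts of C57BL/6 mouse embryos at E8.75, the stage of 6 somites. Embryos were dissected singly, so that a library stands for 1 animal, and 4 Isl1-/- and 4 wild-type libraries were compared. Isl1 encodes a LIM-homeodomain factor of second heart field progenitors, and the comparison asked which genes depend on it during early heart formation. The knockout was carried in every cell of the embryo and was not restricted to the heart. The molecule was labelled as polyA RNA in 7 libraries and as total RNA in that of knockout embryo 2.

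SRF binds a DNA element called the CArG box and is present in most cell types, so its choice of targets depends on partner proteins. Myocardin (Myocd) is a coactivator restricted to cardiac and smooth muscle cells, while the related proteins encoded by Mkl1 and Mkl2 are widely expressed and enter the nucleus when the pool of free actin monomers shrinks. MEF2 proteins bind an A/T-rich element in muscle genes, and loss of Mef2c in mice disturbs looping and right ventricle formation. Hopx binds no DNA itself and is known to hold SRF away from its targets in the developing heart.

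Library totals ran from 18916449 to 26153048 reads over 1 entry per gene and did not separate the genotypes (n = 4 each, exact two-sided permutation p = 0.257). The targeted gene, Isl1, had 9.72 to 26.9 counts per 1000000 reads (CPM) in wild-type libraries and 1.78 to 2.40 CPM in knockout libraries, as the labels require (log2 fold change -3.00, SE 0.36, edgeR FDR 0.0041). Cardiomyocyte genes were present in every library. The summed level of 8 of them (Tnnt2, Tnni1, Myh6, Myh7, Myl3, Myl7, Actn2 and Ryr2) was 1810 to 2440 CPM in wild-type and 879 to 1390 CPM in knockout embryos. In the tissue as a whole, fewer cells of a type and less RNA per cell cannot be told apart. Pharyngeal mesoderm markers were also detected, with Tbx1, Fgf8, Fgf10 and Osr1 summing to 34.6 to 63.0 CPM in wild-type and 37.2 to 62.9 CPM in knockout embryos. None of the 4 passed an edgeR FDR of 0.05, but at an unadjusted p under 0.05 edgeR had Tbx1 higher (0.98, FDR 0.248) and Fgf10 lower (-0.55, FDR 0.148). Among all genes tested, 7.37% were higher and 10.1% lower at that p. Skeletal muscle markers were near 0, and Myog was at 0 in 7 libraries.

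Within the group, Myocd fell to 33.4% of its wild-type mean, Mef2c to 60.3% and Hopx to 66.9%, and these were the 3 of the 8 genes lower in the knockout past a false discovery rate (FDR) of 0.05 in edgeR. Of all 14075 genes tested, 0.867% were lower past that threshold. None of the 8 was higher past it, against 0.107% of all genes, and the DESeq2 Wald test also called 0 of the 8 higher. Srf was at 70.2% of wild-type without overlap between the genotypes but missed the FDR threshold. The values of Mef2a, Mef2d, Mkl1 and Mkl2 overlapped between genotypes. In all, 4 of the 8 genes were lower without overlap (Myocd, Srf, Mef2c and Hopx), a pattern seen in 6.33% of all genes, and 0 were higher without overlap, a pattern seen in 3.96%. DESeq2 called these same 4 genes lower, against 3.29% of all genes. At an unadjusted p under 0.05, edgeR called 5 of the 8 lower, against 10.1% of all genes, and 0 of them higher, against 7.37%.

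**Figure D1:**
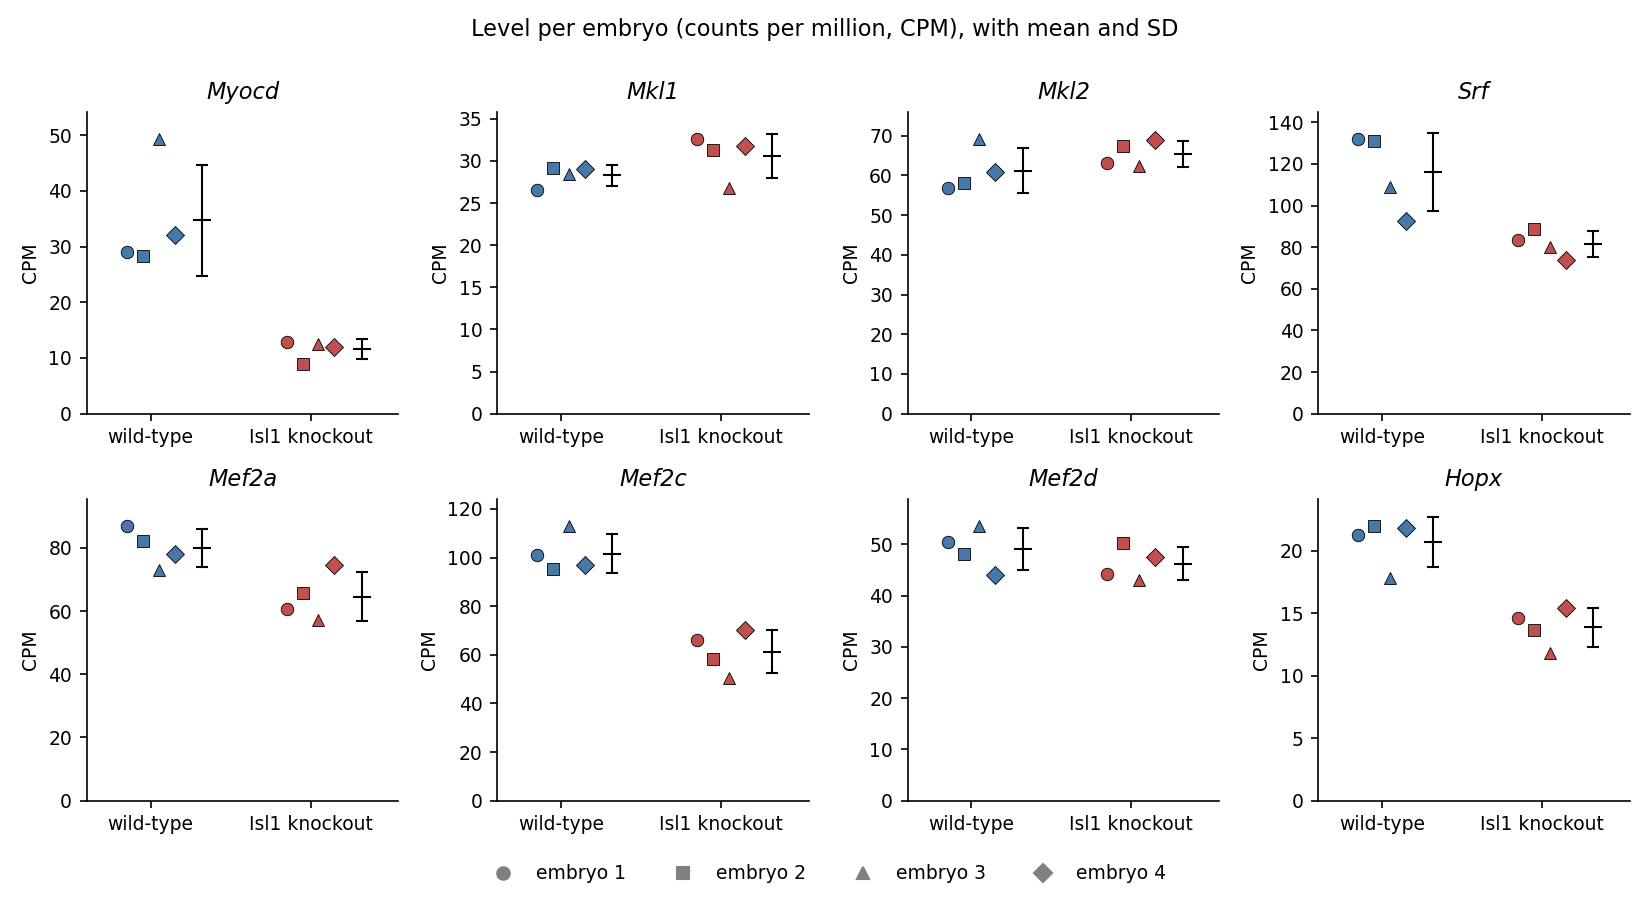
Level of each regulator in CPM (vertical axes, starting at 0) in 4 wild-type (blue) and 4 Isl1 knockout embryos (red), with the embryo number as the symbol and the mean and SD beside the points. Myocd, Srf, Mef2c and Hopx show no overlap between genotypes, whereas Mkl1, Mkl2, Mef2a and Mef2d do.

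Srf, the DNA-binding partner of the coactivators, was the most abundant of the 8 per base of transcript. Srf (NM_020493, mm9 chromosome 17, 46683788 to 46693111, minus strand, protein coding) was found at 132, 131, 109 and 92.8 CPM in the wild-type libraries, in the order of embryos 1 to 4. In knockout embryos 1 to 4 it was at 83.4, 88.7, 80.0 and 73.8 CPM. The lowest wild-type embryo therefore lay only slightly above the highest knockout embryo, and the wild-type embryos differed more among themselves than the knockouts did. The means were 116 ± 18.7 and 81.5 ± 6.26 CPM (SD, n = 4 each), a log2 fold change of -0.51 (SE 0.11, edgeR FDR 0.069). DESeq2 called the gene at an adjusted p of 0.00192. With Y-linked reads, which mark male embryos, as a covariate Srf was at -0.34 (edgeR FDR 0.274). Without wild-type embryos 1 and 2, its highest libraries, the log2 fold change was -0.30 (edgeR FDR 0.446). That fit compared 2 wild-type with 4 knockout embryos and called 20 genes lower over all genes, against 122 with all embryos.

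The sequence just upstream of Srf is shown because SRF itself is a CArG-binding factor and this stretch holds a pair of CArG boxes. Promoter windows of 300 bases, from 250 before to 50 after the start, came from RefSeq (GRCm38.p6). They were read for 7 of the 8 genes, with Mkl1 and Mkl2 under the newer symbols Mrtfa and Mrtfb, and each stretch printed here was matched exactly to the mm9 genome. No window was read for Myocd, so neither motif was searched there. CArG boxes and MEF2 sites were searched on both strands. A CArG box was found in 535 of 32851 windows of all genes (1.63%) and a MEF2 site in 1047 (3.19%). The Srf stretch, chr17:46693144-46693233 on the minus strand, is written 5′ to 3′ with the CArG boxes in capitals, which begin 82 and 62 bases before the start. A match describes letters in this window and was not tested for binding.
Srf: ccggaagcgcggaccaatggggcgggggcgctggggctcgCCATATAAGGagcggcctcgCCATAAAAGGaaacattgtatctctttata

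Among the coactivators, the muscle-restricted gene passed the test and its widely expressed relatives did not. Myocd (NM_145136, chromosome 11, 64990063 to 65083491, minus strand, protein coding) had 29.1, 28.3, 49.3 and 32.0 CPM in wild-type embryos 1 to 4. In knockout embryos 1 to 4 it had 12.9, 9.0, 12.5 and 12.0 CPM. All knockout embryos lay below all wild-type embryos with a wide gap, and wild-type embryo 3 stood above the other 3. The mean dropped from 34.7 ± 9.87 to 11.6 ± 1.78 CPM (SD, n = 4 each), 2.99-fold or -1.58 on the log2 scale (SE 0.19, edgeR FDR 0.00447). By p-value the gene ranked 33 of the 14075 tested, next to Isl1 at 32. Its call was kept under every alternative run, with a log2 fold change of -1.36 when wild-type embryo 3 was left out.

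Mkl1, which encodes an actin-sensing SRF coactivator (NM_001082536, chromosome 15, 80842711 to 81021187, minus strand), had 26.5, 29.2, 28.4 and 29.0 CPM in the wild-type. The knockout embryos 1 to 4 had 32.6, 31.3, 26.8 and 31.8 CPM. The groups overlapped at a log2 fold change of 0.12 (SE 0.08, edgeR FDR 0.513). Exons of Sgsm3 overlap those of Mkl1 on the opposite strand, and since counting ignored strand, the reads of the pair cannot be told apart there. Sgsm3 had a log2 fold change of 0.03 (edgeR FDR 0.894).

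Mkl2, the second actin-sensing coactivator (NM_001122667, chromosome 16, 13256574 to 13417622, plus strand), was at 56.8, 58.0, 69.2 and 61.0 CPM in wild-type embryos. It was at 63.1, 67.5, 62.3 and 68.9 CPM in knockout embryos. No embryo stood apart, with a log2 difference of 0.10 (SE 0.08, edgeR FDR 0.565). Exons of the gene Gm15738 overlap it on the opposite strand.

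The change of Myocd was set against its relatives within each library. Per kilobase of transcript, Myocd reads were 0.440, 0.404, 0.649 and 0.447 of the summed Mkl1 and Mkl2 reads in wild-type embryos 1 to 4. In knockout embryos 1 to 4 the ratio was 0.167, 0.115, 0.179 and 0.150. The groups were far apart, with a log2 difference of -1.66 (exact two-sided permutation p = 0.0286, the lowest that 4 against 4 allow). Adjusted over the 6 within-library ratios computed, the permutation p was 0.0571, which is also the lowest value that 3 equal minimal p-values can reach here.

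**Figure D2:**
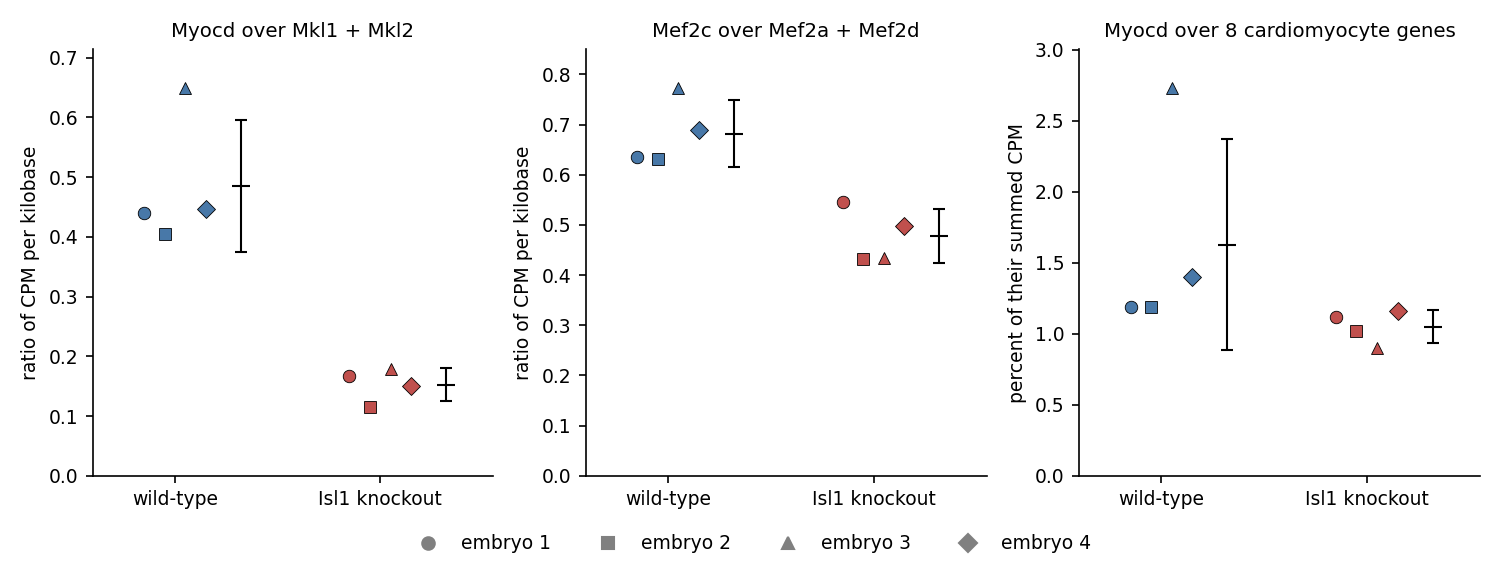
Ratios within each library for 4 wild-type (blue) and 4 knockout embryos (red), with mean and SD: Myocd over Mkl1 plus Mkl2 and Mef2c over Mef2a plus Mef2d, in CPM per kilobase, and Myocd as a percent of the summed CPM of 8 cardiomyocyte genes. The genotypes do not overlap in any panel, but in the last one the gap is narrow and wild-type embryo 3 at 2.73% lies far above the rest.

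In the MEF2 family, Mef2c was the member that passed the test. Mef2c (NM_001347567, equal in reads to NM_001347566, chromosome 13, 83643033 to 83806684, plus strand, protein coding) encodes the factor needed for the looping heart tube. Its level was 101, 95.2, 113 and 97.1 CPM in wild-type embryos 1 to 4. Knockout embryos 1 to 4 had 66.1, 58.1, 50.4 and 70.3 CPM. A gap of more than the whole range of either group separated the genotypes. The mean dropped from 102 ± 8.06 to 61.2 ± 8.84 CPM (SD, n = 4 each), with a log2 fold change of -0.73 (SE 0.11, edgeR FDR 0.00985). The call was kept when any single embryo was left out. It ended with Y-linked reads, which mark male embryos, as a covariate (edgeR FDR 0.0518) and without wild-type embryos 1 and 2 (-0.78, edgeR FDR 0.125), while the size of the change stayed close.

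Mef2a, a broadly expressed MEF2 factor (NM_001033713, chromosome 7, 74376049 to 74517744, minus strand), had 86.9, 82.3, 72.9 and 78.0 CPM in wild-type embryos 1 to 4. In knockout embryos 1 to 4 the values were 60.5, 65.8, 57.1 and 74.7 CPM. Only knockout embryo 4 reached into the wild-type range, above wild-type embryo 3. The log2 fold change was -0.31 (SE 0.09), and neither edgeR (FDR 0.141) nor DESeq2 (adjusted p 0.0598) called it.

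Mef2d, another broadly expressed member (NM_001310587, chromosome 3, 87946294 to 87976008, plus strand), had 50.5, 48.2, 53.6 and 44.0 CPM in wild-type embryos. It had 44.3, 50.3, 43.0 and 47.5 CPM in knockout embryos. The groups lay on top of each other, with a log2 fold change of -0.08 (SE 0.08, edgeR FDR 0.646) that turned to 0.02 with Y-linked reads as a covariate. Exons of 1700113A16Rik overlap Mef2d on the opposite strand. The fourth member of the family, Mef2b, had a mean of 0.281 CPM over the 8 libraries and was too low to be tested.

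The share of Mef2c within the family was also compared. Per kilobase, Mef2c reads were 0.635, 0.632, 0.773 and 0.689 of the summed Mef2a and Mef2d reads in wild-type embryos 1 to 4. In knockout embryos 1 to 4 they were 0.545, 0.432, 0.435 and 0.498 of that sum. The groups did not overlap, and the log2 difference was -0.52 (exact two-sided permutation p = 0.0286, adjusted over 6 ratios 0.0571). Without wild-type embryo 3 the difference was -0.45 (exact permutation p = 0.0571).

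A MEF2 site was found in the windows of 2 of the 7 genes read, Mef2a and Mkl2. Mef2a had 1 window, and for Mkl2 the site was in 1 of 3 windows. The 7 genes had 13 windows in all, and the 3.19% over all genes is a share of windows. The Mef2a stretch is shown because a gene of the family carries the family's own element beside its start. It lies at chr7:74517717-74517786 in mm9 on the minus strand, is written 5′ to 3′, and its MEF2 site, in capitals, begins 2 bases before the start. No window of Mef2c, in which 3 windows were read, held either motif.
Mef2a: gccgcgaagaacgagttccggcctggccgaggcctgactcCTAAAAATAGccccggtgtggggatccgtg

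Hopx was the third regulator that fell, with the weakest support. Hopx (NM_001159901, chromosome 5, 77515468 to 77544186, minus strand, protein coding), which restrains SRF, had 21.3, 22.0, 17.8 and 21.8 CPM in the wild-type. The knockout embryos 1 to 4 had 14.6, 13.7, 11.8 and 15.4 CPM. The genotypes did not overlap, and embryo 3 was the lowest of its genotype in either group. The means were 20.7 ± 1.97 and 13.9 ± 1.53 CPM (SD, n = 4 each), with a log2 fold change of -0.58 (SE 0.11, edgeR FDR 0.0496). That FDR lay just under the threshold. It ranged from 0.0191 to 0.173 when an embryo was left out, and only leaving out wild-type embryo 3 kept the call. DESeq2 called Hopx at an adjusted p of 0.000727. Exons of Gm15830 overlap Hopx on the opposite strand.

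The Hopx stretch is shown because Hopx and Srf were the genes with a CArG box among the 7 read. A CArG box was present in 1 of 2 Hopx windows. In mm9 it lies in chr5:77544202-77544271 on the minus strand. The box, in capitals, begins 83 bases before the RefSeq start used for that window. That start differs from the gene boundary given above for Hopx.
Hopx: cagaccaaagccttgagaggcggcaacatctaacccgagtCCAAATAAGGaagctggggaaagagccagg

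**Figure D3:**
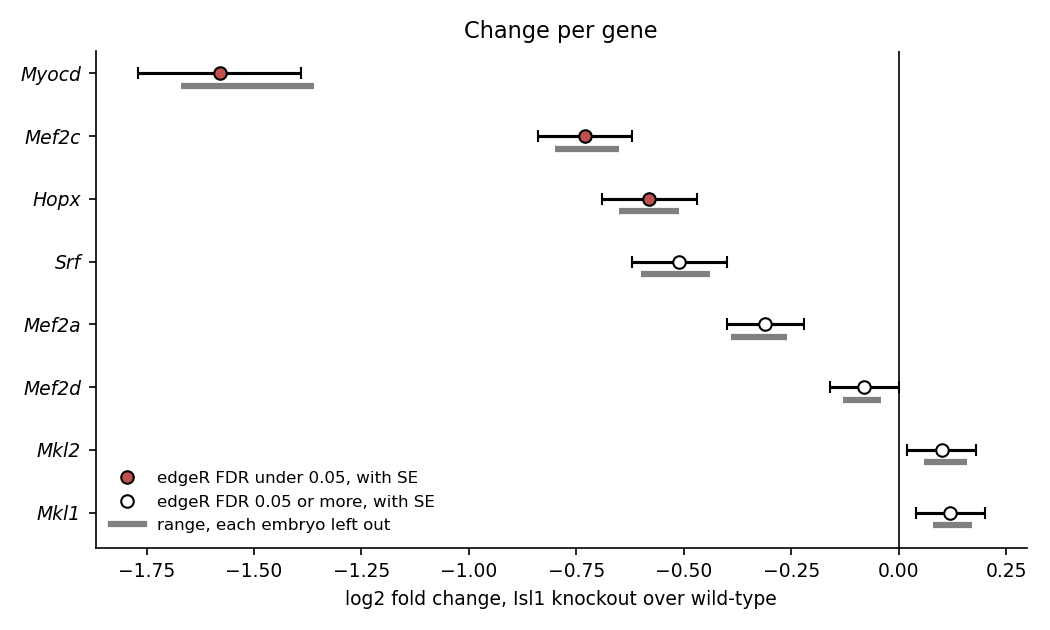
Log2 fold change of each regulator, Isl1 knockout over wild-type (horizontal axis), with the SE as a black bar and the range over fits that each left out 1 embryo as a grey bar. Filled points (Myocd, Mef2c, Hopx) passed an edgeR FDR of 0.05, and Myocd at -1.58 lies well apart from the other 7.

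The order of the levels per kilobase shifted between genotypes. In wild-type embryos the mean level in CPM per kilobase was highest for Srf (28.4 ± 4.59), followed by Hopx (16.9 ± 1.6), Mef2c (16 ± 1.27) and Mef2a (14.5 ± 1.08). Mef2d (9.07 ± 0.751), Mkl2 (7.41 ± 0.677), Myocd (6.80 ± 1.94) and Mkl1 (6.50 ± 0.285) came below (SD, n = 4). Of these neighbours only Srf and Hopx, and Mef2a and Mef2d, did not overlap. In knockout embryos the order by mean was Srf, with 18.1 to 21.7 over the embryos, then Mef2a (11.7 ± 1.38), Hopx (11.3 ± 1.25), Mef2c (9.66 ± 1.40), Mef2d (8.55 ± 0.609), Mkl2 (7.92 ± 0.392), Mkl1 (7.04 ± 0.594) and Myocd (2.27 ± 0.348). Myocd, whose wild-type range contained that of Mkl1, was thus below every other regulator in the knockout. Lengths were those of the entry used, so levels of genes with several transcripts depend on that choice.

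The 8 genes had 37 transcript entries in all, which share most of their exons. Srf had 1 entry, Myocd 2, Mkl1 2, Mkl2 3, Mef2a 5, Mef2c 18, Mef2d 3 and Hopx 3. The second Myocd entry, NM_146386, held 96.3% of the reads of the entry used. The reads found only in the entry used numbered 27, 18, 53 and 19 in wild-type and 16, 5, 9 and 14 in knockout embryos, too few for a comparison of isoforms. The entries of Mef2c held at least 95.3% of the reads of the entry used and gave log2 fold changes of -0.72 to -0.71 (edgeR FDR 0.0083). For Hopx the FDR ran from 0.0457 to 0.0535 over its entries. A short entry of Mkl2, NM_181860 with 612 bases, held 2.06% of the reads and had a log2 fold change of -0.01 (SE 0.22, edgeR FDR 0.993).

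Cardiomyocyte genes moved with the regulators, and the levels were therefore also given relative to them. All 8 cardiomyocyte genes were lower past the edgeR FDR of 0.05, against 0.867% of all genes. The median of their log2 fold changes was -1.01, against 0.01 over all genes. Without wild-type embryos 1 and 2 none of the 8 passed, at a median of -0.83. Over all genes, that fit of 2 against 4 embryos called 20 lower, against 122 with all embryos. Myocd equalled 1.19%, 1.19%, 2.73% and 1.40% of their summed CPM in wild-type embryos 1 to 4. In knockout embryos it equalled 1.12%, 1.02%, 0.901% and 1.16%. The groups did not overlap but nearly touched, and the log2 difference was -0.54 (exact two-sided permutation p = 0.0286, adjusted 0.0571). Without wild-type embryo 3 the difference was -0.26 (exact permutation p = 0.0571). With any 1 knockout embryo left out it was -0.59 to -0.47 (exact permutation p = 0.1143 to 0.1429). The p was under 0.05 in 3 of the 8 runs that left out an embryo.

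Srf, Hopx and Mef2c were set against the cardiomyocyte genes in the same way, and each of the 3 overlapped between genotypes. Srf differed by 0.51 on the log2 scale (p = 0.0571, adjusted 0.0857), Hopx by 0.43 (p = 0.1429, adjusted 0.1714) and Mef2c by 0.27 (p = 0.4286, adjusted 0.4286), all by exact two-sided permutation. Without knockout embryo 3, the library with the highest cardiomyocyte sum among knockouts, the differences were 0.63 for Srf and 0.62 for Hopx (exact permutation p = 0.0286 for each). For both genes this was the 1 run of 8 leaving out an embryo with p under 0.05. In the other runs the exact permutation p reached 0.0857 for Srf and 0.2286 for Hopx. None of the genes of the endothelial, neural crest, neural, endoderm or erythroid marker lists passed an edgeR FDR of 0.05, and 1 of these 25 genes had an unadjusted p under 0.05 (endothelial Emcn, named after its values were seen, at -0.42, edgeR FDR 0.229). Over all genes, 10.1% were lower and 7.37% higher at that p. Some of these markers differed widely between embryos of 1 genotype. Afp was at 47.7 to 390 CPM in wild-type and 37.1 to 840 CPM in knockout embryos (SE 0.92). Hbb-y was at 22.1 to 350 and 175 to 409 CPM (SE 0.60), while Epcam stayed at 60.5 to 72.7 and 57.9 to 72.7 CPM. A missing call therefore does not show equal tissue content. The part of tissue composition in the change of the regulators was not tested.

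Other genes whose products act on SRF or MEF2 were counted next. Of 23 such genes (ternary complex factors, histone deacetylases, actin signalling proteins, LIM proteins and others), 22 were tested, 1 was lower and 0 were higher past the edgeR FDR. The shares over all genes were 0.867% and 0.107%. Their median log2 fold change was -0.12. At an unadjusted p under 0.05, 7 were lower and 1 was higher in edgeR, against 10.1% and 7.37% of all genes. The gene that passed was Mical2, which encodes an enzyme that oxidises actin and thereby promotes SRF activity. Mical2 was at 55.5, 46.9, 41.5 and 50.8 CPM in wild-type and 27.3, 23.4, 29.3 and 29.1 CPM in knockout embryos (log2 fold change -0.84, SE 0.11, edgeR FDR 0.00628). The genotypes were clearly apart. The most abundant genes of the list, Hdac2, a histone deacetylase that works with Hopx (-0.13, edgeR FDR 0.442), and Rhoa, the GTPase upstream of actin assembly (-0.13, edgeR FDR 0.376), did not pass. Without wild-type embryos 1 and 2, Hdac2 was at 0.01 and Mical2 at -0.76 (edgeR FDR 0.115).

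SRF controls both muscle and cytoskeletal genes, and these were listed apart. Of 15 SRF muscle targets, all tested, 4 were lower and 0 higher past the edgeR FDR, and 10 were lower at an unadjusted p under 0.05. Over all genes, 0.867% were lower and 0.107% higher past that FDR, and 10.1% were lower at that p. Their median log2 fold change was -0.57. Cnn1, encoding calponin of smooth muscle, was at 30.6 to 36.9 CPM in wild-type and 14.0 to 18.5 CPM in knockout embryos (-1.12, SE 0.11, edgeR FDR 0.00212). Tpm1 encodes a tropomyosin and was at 487 to 598 against 361 to 407 CPM (-0.50, edgeR FDR 0.0239). The muscle actin genes Acta2 (-0.77) and Actc1 (-0.91) each had an edgeR FDR of 0.048. For both, the call ended in most fits that left out an embryo. The call of Tpm1 was kept in 3 of the 8 fits that left out an embryo, and that of Acta2 and of Actc1 in 1 of 8. With Y-linked reads as a covariate the FDR of Tpm1 was 0.123 in edgeR. Without wild-type embryos 1 and 2, none of the 15 passed, with a median of -0.36. In that smaller fit 20 genes were called lower over all genes, against 122 with all embryos.

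Of 10 cytoskeletal SRF targets, 0 passed the edgeR FDR in either direction, 2 were lower at an unadjusted p under 0.05, and the median was -0.15. Over all genes, 0.867% were lower and 0.107% higher past that FDR, and 10.1% were lower at that p. Actb, the cytoplasmic beta-actin, ranged from 2910 to 3600 CPM in wild-type and from 2860 to 3340 CPM in knockout embryos (-0.17, edgeR FDR 0.345). Flna, an actin cross-linker, ranged from 1470 to 1540 and from 1520 to 1640 CPM (0.07, edgeR FDR 0.574). Levels of these abundant genes overlapped between genotypes. The 2 genes lower at the unadjusted p, named after their values were seen, were Actg1 and Cyr61. Actg1 was at 30.1 to 51.6 CPM in wild-type and 21.6 to 29.7 CPM in knockout embryos, without overlap (-0.69, edgeR FDR 0.0866). Cyr61 overlapped, at 46.9 to 159 and 30.6 to 59.2 CPM (-1.25, edgeR FDR 0.137). The difference between the muscle and the cytoskeletal list was not tested.

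Of 12 MEF2 targets, 10 were tested, 2 were lower and 0 higher past the edgeR FDR, 9 were lower at an unadjusted p under 0.05, and the median was -1.08. The shares over all genes were 0.867% lower and 0.107% higher past the FDR, and 10.1% lower at that p. Smyd1, a muscle histone methyltransferase, was at 93.3, 99.3, 83.1 and 91.8 CPM in wild-type and 47.0, 38.8, 43.4 and 39.3 CPM in knockout embryos (-1.13, SE 0.08, edgeR FDR 0.00174). Xirp1, an actin-binding protein of cardiac cell junctions, fell from 29.3 to 33.4 CPM in wild-type embryos to 13.0 to 18.5 CPM in knockout embryos (-1.05, SE 0.13, edgeR FDR 0.00389). Both genes were apart in every embryo. Without wild-type embryos 1 and 2, Smyd1 was the 1 gene of the list still called (-1.05, edgeR FDR 0.0325), and the median of the list was -0.69. That fit called 20 genes lower over all genes, against 122 with all embryos. Jun, on this list and an immediate early gene as well, did not pass (-1.64, edgeR FDR 0.175). Jun, Nr4a1 and Klf2, the last 2 named after their values were seen, were among the genes lower at the unadjusted p. In wild-type embryos 1 to 4 Jun was at 150, 231, 32.1 and 43.5 CPM. Nr4a1 was at 33.3, 36.1, 8.60 and 12.2 CPM and Klf2 at 13.1, 20.1, 2.44 and 4.64 CPM. Smyd1 and Xirp1 showed no such split of the wild-type embryos.

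**Figure D4:**
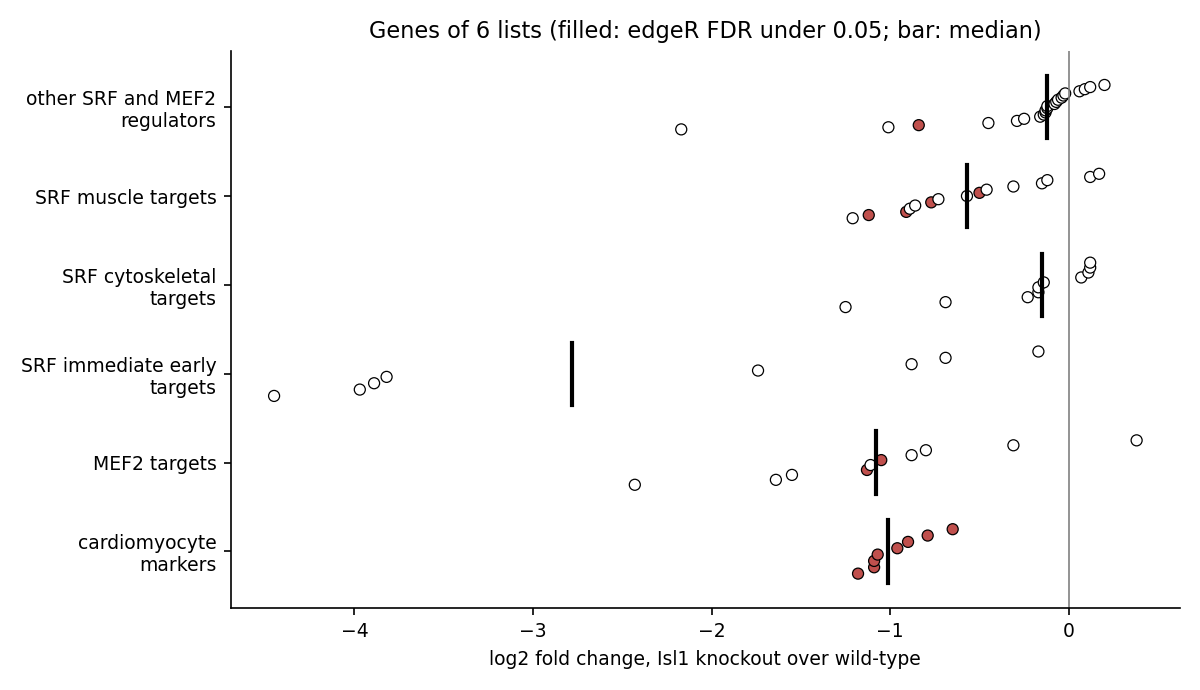
Log2 fold change, Isl1 knockout over wild-type (horizontal axis), of each tested gene in 6 lists, with points spread vertically for visibility, the list median as a bar and filled points for an edgeR FDR under 0.05. All 8 cardiomyocyte markers are filled, 4 of the SRF muscle targets and none of the cytoskeletal or immediate early targets. Over all genes tested, 0.867% were lower past that FDR.

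Immediate early genes, the rapid SRF targets of growth factor signalling, split the wild-type embryos. Of 8 such genes, 0 passed the edgeR FDR in either direction, against 0.867% of all genes lower and 0.107% higher. At an unadjusted p under 0.05 in edgeR, 7 of the 8 were lower, against 10.1% of all genes. The median of the 8 lay at -2.78 on the log2 scale. Egr1, a zinc finger factor, had 257, 283, 6.07 and 31.7 CPM in the wild-type. In knockout embryos 1 to 4 it was at 5.10, 6.05, 22.0 and 6.27 CPM (-3.89, SE 1.05, edgeR FDR 0.112). Wild-type embryos 1 and 2 were far above all others, and wild-type embryo 3 lay within the knockout range. Fos, a subunit of AP-1 named after its values were seen, had the same split, with 137 and 271 CPM in wild-type embryos 1 and 2 and 2.07 to 27.2 CPM elsewhere. Mcl1, a survival protein and the abundant gene of the list, overlapped between genotypes (-0.17, edgeR FDR 0.341).

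Without wild-type embryos 1 and 2 the median of the 8 genes was -0.41. Srf was highest in the same 2 embryos. Isl1 was lower in them, at 9.72 and 9.76 CPM, than in wild-type embryos 3 and 4, at 26.9 and 23.3 CPM. Myocd lay at 29.1 and 28.3 CPM in these 2 embryos and 49.3 and 32.0 CPM in the others, and remained apart from all knockouts. The part of these libraries in the change of Srf was not tested beyond leaving them out.

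**Figure D5:**
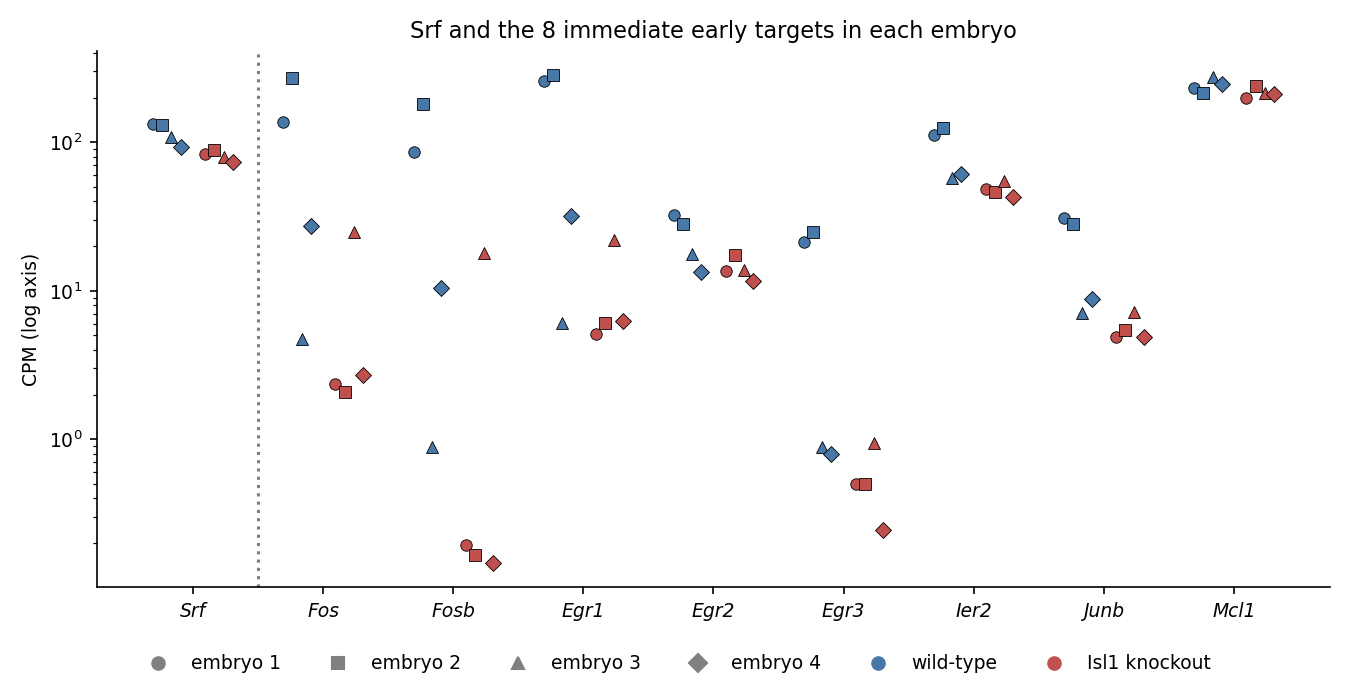
CPM on a log axis of Srf and of the 8 immediate early SRF targets in each embryo (symbols: embryo number, blue: wild-type, red: knockout). Wild-type embryos 1 and 2 stand above the rest for 7 of the 8 targets, for example Egr1 at 257 and 283 CPM, and hold the highest Srf values, whereas Mcl1 shows no such split.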

How the data were processed

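RNA of single embryos (100 ng per library) was sequenced. Per the methods of the study, reads were mapped by the authors to mm9 with STAR (minimum intron 20, maximum 500000), and the deposited counts are raw reads over exons of RefSeq transcripts, made with HOMER from both strands without adjustment. RPKM, as deposited, had been computed with edgeR, and the deposited length is that of the transcript in bases, with other columns holding the authors' DESeq2 means, fold changes, errors, statistics and p-values, which were not used. Versions of these tools are not given in the sources used here.

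From 31507 entries, the entry with the most reads was kept for each of 20701 symbols. Counts were filtered (filterByExpr), scaled by TMM and fitted in edgeR 4.0.16 (R 4.3.3) by quasi-likelihood with genotype as the single term. The test was two-sided, with Benjamini-Hochberg adjustment over 14075 genes (FDR), and was tested on simulated data. CPM are TMM-scaled. SEs belong to log2 fold changes. Ratios were compared by exact permutation. DESeq2 1.42.0 and limma 3.58.1 (log2(RPKM + 1)) gave alternatives, and Python 3.11.15 with pandas 2.3.3, numpy 2.4.6 and matplotlib 3.10.9 the tables and plots. Columns named as controls were matched to wild-type embryos by number. Coordinates came from GENCODE vM1 on mm9.

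The 8 genes and the lists were chosen with earlier results of these data known. Named genes were the 8, Isl1, and per list up to 6 genes past the FDR and the 2 most abundant, with the 3 genes most like Myocd and Mef2c, of which 1 is not reported here. Without molecular identifiers, depth speaks to counting error only. Embryos are separate animals, and 4 per genotype limit precision.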

Additional observations from a re-analysis of the deposited data

Results flagged for a closer look

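Among 58 groups of 4 embryos examined for an outlying embryo by Dixon's ratio, 4 had a value far from the other 3, where chance gives about 1 in 20. Hopx was lowest in wild-type embryo 3, at 17.8 CPM against 21.3 to 22.0 CPM in the other wild-type embryos. In the same embryo Myocd stood at 0.0273 of the summed cardiomyocyte genes, against 0.0119 to 0.0140 in the other 3. Mef2c stood there at 0.0626 of that sum, against 0.0398 to 0.0426. The sum itself was lowest among wild-type embryos in embryo 3, at 1810 CPM. Egr1 was highest among knockouts in knockout embryo 3, at 22.0 CPM against 5.10 to 6.27 CPM. The causes were not tested.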

How the results depend on the processing

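Genes past the FDR numbered 137, 699 with DESeq2 (236 higher), 76 with the replicate block, 85 with Y-linked reads as a covariate, 309 over all transcript entries and 22 without wild-type embryos 1 and 2, an alternative chosen after seeing the data. Leaving out single embryos gave 70 to 490 genes, the most without wild-type embryo 3. The cause was not tested. DESeq2 shared all 137 genes with the reported set, and the fit without wild-type embryos 1 and 2 shared 21.

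Myocd was called in every alternative. Srf was past the threshold at -0.50 in DESeq2 (0.00192) and was not called at -0.34 with Y-linked reads (edgeR FDR 0.274). Mef2c was not called at -0.73 with Y-linked reads or at -0.78 without wild-type embryos 1 and 2, and Mef2d turned to 0.02 with Y-linked reads. Hopx was not called at -0.57 with DESeq2 size factors (edgeR FDR 0.055), -0.56 without the filter (0.0604), -0.61 with Y-linked reads (0.132), -0.47 in limma (0.0594) or -0.51 without wild-type embryos 1 and 2 (0.39). Hdac2 turned to 0.01 in that last fit. There the exact permutation p of the ratios was 0.0667, the smallest possible with 2 against 4, at -1.84 for Myocd against Mkl1 and Mkl2, -0.62 for Mef2c against Mef2a and Mef2d and -0.90 for Myocd against cardiomyocyte genes. The calls in the lists there were 0 other regulators, 0 muscle targets and 1 MEF2 target, with 20 genes called lower over all genes.

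Leaving out each embryo gave log2 fold changes of -1.67 to -1.36 for Myocd (8 of 8 called), -0.80 to -0.65 for Mef2c (8 of 8), -0.60 to -0.44 for Srf (2 of 8, without wild-type embryos 3 or 4) and -0.65 to -0.51 for Hopx (1 of 8). Mef2a, Mef2d, Mkl1 and Mkl2 were never called. Differences of the ratios ran from -1.74 to -1.51 for Myocd and -0.58 to -0.45 for Mef2c against their relatives. Against cardiomyocyte genes they ran from -0.66 to -0.26 for Myocd, 0.33 to 0.62 for Hopx and 0.36 to 0.63 for Srf. There the exact permutation p was under 0.05 in 3 of 8 runs for Myocd, 1 of 8 for Hopx and 1 of 8 for Srf.

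Same-numbered embryos deviated together at correlations of 0.109, 0.212, 0.0863 and 0.507, all positive. Correlations between differently numbered embryos were not computed, so these values cannot decide whether the numbers mark pairs. The reported fit did not take them as pairs. With the replicate block Srf was called at -0.50 (edgeR FDR 0.049) and Hopx was not at -0.58 (0.0674), while Mef2c was at -0.74 (0.0493). In that paired form the ratios stood at -1.66, -0.52 and -0.54 with an exact permutation p of 0.125, the smallest 4 pairs allow. At this depth the low reads of the short Mkl2 entry and of Mef2b limit what can be seen.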

Other observations

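Among the genes whose levels varied most like Myocd between embryos of the same genotype were Klhdc4 and Mmp15, with Pearson correlations of log2 CPM of 0.987 and 0.975 over 8 embryos after each genotype was centred on its mean. Klhdc4, Mmp15 and Myocd were each highest in wild-type embryo 3 and lowest in knockout embryo 2, the library labelled total RNA. Neither Klhdc4 nor Mmp15 was called between genotypes, at log2 fold changes of -0.32 and -0.25 (edgeR FDR 0.294 and 0.142). The 3 genes most like Mef2c were Cmip, Rasa1 and Rbfox2, at 0.991, 0.981 and 0.981, with log2 fold changes of 0.02, -0.09 and -0.06 (edgeR FDR 0.912, 0.626 and 0.78). They and Mef2c were highest among wild-type embryos in embryo 3 and lowest among knockouts in knockout embryo 3. The points share libraries and depth, and these genes were picked as the highest among all tested, so the correlations are a description.

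Immediate early genes outside the SRF list were also high in wild-type embryos 1 and 2. Nr4a1, an orphan nuclear receptor chosen after its values were seen, is on the MEF2 target list. It was at 33.3 and 36.1 CPM there and at 7.17 to 12.2 CPM in the other 6 embryos. Klf4, an SRF-linked zinc finger factor chosen in the same way, was at 15.1 and 32.5 CPM there and at 1.78 to 4.65 CPM elsewhere.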
